A study of Rattus norvegicus with 12 samples.

Results

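The genes of the insulin-like growth factor (IGF) system were followed in the anterior pituitary of estrogen-treated male rats of 4 congenic lines. The group comprised 10 genes of the 14217 that the array's annotation names by 1 symbol, and every probe set whose symbol was exactly Igf1, Igf2, Igf1r, Igf2r or one of Igfbp1 to Igfbp6 was taken. This gave 23 probe sets of 31099. Of these, 18 probe sets of 9 genes had a mean signal above the floor of 69.7 and were tested among 18607 probe sets in all, and 5 were dimmer and are described by level alone.

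Each line carries COP (Copenhagen) alleles in 1 segment on an otherwise ACI genetic background, and is named for the Ept (estrogen-induced pituitary tumor) locus in that segment. In Ept1 the segment lies on chromosome 6, in both Ept2 and Ept6 on chromosome 3, and in Ept9 on chromosome 10. Where it begins and ends is not given in the sources used here. The animals of all 4 lines were males that received an implant with 5 mg of diethylstilbestrol (DES), a synthetic estrogen, at 9 weeks of age, BrdU at 50 mg/kg 4 hours before sacrifice, and were killed at 21 weeks of age after 12 weeks of DES. Each line had 3 arrays. The series' description calls these 3 biological replicates, whereas the notes to single samples speak of 3 males and of a smaller number of independent replicates, so the p-values may measure a spread that is partly technical. Because every animal had received DES and no ACI, COP or untreated array was analysed here, a line was compared with the other 3 lines, and a difference says nothing of the response to DES.

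The arrays were alike in overall level. Their log2 signals correlated at 0.966 to 0.983, and no pair held identical values. Prl and Gal, which mark the lactotrophs that multiply under estrogens, gave signals of 41054 and above on every array, and the growth hormone gene Gh1 and the shared glycoprotein hormone subunit Cga were also bright throughout. Avp and Oxt, the hormones of the posterior lobe, had mean signals under the floor. Of the other posterior lobe markers, Nkx2-1, Rax and Col25a1 were under the floor. Scn7a was above it and read 74 to 476.8 over the arrays. Pomc and the estrogen receptor Esr1 were also under the floor. Of the other measured markers of corticotrophs and melanotrophs, Pcsk2 and Tbx19 were above the floor and Oacyl was under it. Each marker was read by its brightest probe set alone, so a low signal does not show that the transcript was absent. Of the 45 tested marker probe sets, from lists for 11 cell types, 0 passed the test among the 4 lines (limma moderated F test, lowest adjusted p 0.126), and 16 had an unadjusted p under 0.05, as had 14.1% of all tested probe sets. Against the other lines, 21 of the 45 had an unadjusted p under 0.05 in Ept2, where 14.4% of all tested probe sets did. In Ept9 it was 11 of 45 against 11% of all, in Ept6 8 of 45 against 10.7% and in Ept1 6 of 45 against 7.5%. The share of the markers was above that of all tested probe sets in the F test and in each line.

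Insulin-like growth factors are small secreted proteins that promote growth and survival of cells. Igf1 and Igf2 act through the receptor tyrosine kinase encoded by Igf1r, while the product of Igf2r binds Igf2 and carries it to lysosomes without signalling for growth. Most IGF outside cells is held by binding proteins, which lengthen its life, keep it from the receptor or, once cut by proteases, release it. In the pituitary, Igf1 from the circulation and from the gland itself restrains growth hormone release, and estrogens are known to act on the expression of IGF system genes in several tissues.

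The members lie on 5 rat chromosomes. Igf1 and Igfbp6 are on chromosome 7, Igf2, Igf1r and Igf2r on chromosome 1, Igfbp2 and Igfbp5 on chromosome 9, Igfbp1 and Igfbp3 on chromosome 14, and Igfbp4 on chromosome 10. Igfbp2 and Igfbp5 are immediate neighbours on opposite strands with 0 annotated genes between them, as are Igfbp1 and Igfbp3. Igfbp4 was therefore the 1 member on a chromosome that carries a COP segment in one of these lines, Ept9. The start regions of Igfbp4 and Igfbp5, the members with the largest differences between lines described below, are shown to place these genes. Both run from 250 bases before to 50 bases after the annotated start, 5′ to 3′ on the gene's own strand, as RefSeq gives them for build GRCr8, which is the sequence of a Brown Norway rat and of neither ACI nor COP. Igfbp4 is at chr10:84491221-84491520 on the plus strand and Igfbp5 at chr9:81914138-81914437 on the minus strand. Capitals mark the TATA box letters TATAAA.
Igfbp4: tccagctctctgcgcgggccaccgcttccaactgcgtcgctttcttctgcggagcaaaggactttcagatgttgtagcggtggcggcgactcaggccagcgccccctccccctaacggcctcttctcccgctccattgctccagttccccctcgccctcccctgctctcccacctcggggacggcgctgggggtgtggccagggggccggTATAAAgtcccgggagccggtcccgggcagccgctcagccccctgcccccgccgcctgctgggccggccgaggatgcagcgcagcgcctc
Igfbp5: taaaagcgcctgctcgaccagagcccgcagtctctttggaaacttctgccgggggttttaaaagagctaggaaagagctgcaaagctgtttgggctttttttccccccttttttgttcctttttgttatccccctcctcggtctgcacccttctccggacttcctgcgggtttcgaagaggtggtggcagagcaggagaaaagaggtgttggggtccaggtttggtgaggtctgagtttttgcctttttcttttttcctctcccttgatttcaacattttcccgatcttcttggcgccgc
The letters TATAAA, searched on both strands, stood at position -40 relative to the start of Igfbp4 and in none of the other 10 member promoters, and 14.2% of 33469 rat promoters of this length held them. The full estrogen response element, GGTCANNNTGACC, was in 0 of the 11 member promoters and in 0.0269% of all. Its single arm GGTCA, contained in the full element, was in 5 of them, among which the promoters of Igf1 and Igf2r but not those of Igfbp4 and Igfbp5, and in 40.5% of all promoters. The GC box GGGCGG was in 5 member promoters and in 33.1% of all. The CCAAT box, searched as CCAAT on both strands, was in 1, that of Igfbp1, and in 37.5% of all. A match of letters is a description of the sequence and not a measured binding site.

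Among the 4 lines, 1 of the 18 tested member probe sets passed the test, that of Igfbp4, where 0.989% of all tested probe sets did (limma moderated F test on log2(signal + 16), Benjamini-Hochberg adjusted over all 18607). Against the other 3 lines, 0 of 18 passed in Ept1, where 0.193% of all did, 0 of 18 in Ept2 against 0.774%, 0 of 18 in Ept6 against 0.161%, and 1 of 18 in Ept9 against 0.666%. At an unadjusted p under 0.05 the numbers were 2 of 18 in Ept1, where 7.5% of all tested probe sets were, and 4 of 18 in Ept2 against 14.4%. In Ept6 it was 1 of 18 against 10.7% and in Ept9 2 of 18 against 11%. These contrasts share arrays, so that a line far from the others moves all 4. The median member difference was 0.17 on the log2 scale in Ept1, -0.02 in Ept2, -0.05 in Ept6 and -0.14 in Ept9, and over all tested probe sets it was 0.01, 0.01, 0.01 and -0.01. In Ept1, 14 of the 18 were above 0, as were 53.3% of all probe sets. Several probe sets of 1 gene stand in this count.

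**Figure D1:**
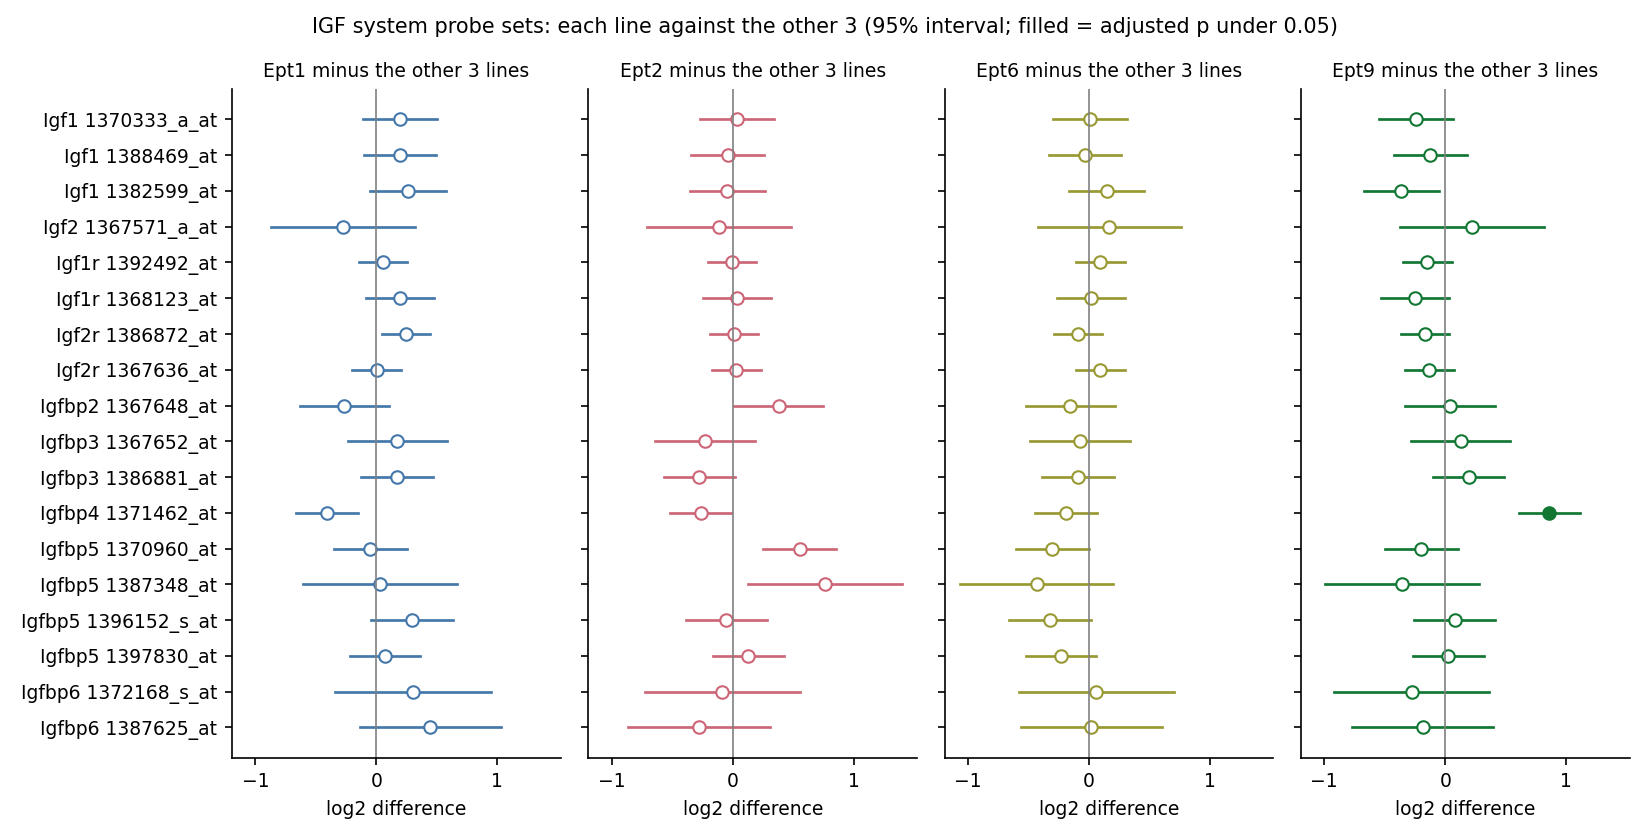
Log2 difference of each of the 18 tested IGF probe sets (rows) in each line minus the mean of the other 3 lines (panels), with 95% intervals from limma. The filled point, Igfbp4 in Ept9 at 0.86, is the 1 difference past the threshold. All other points lie between -0.43 and 0.77.

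Igfbp4 was higher in the pituitaries of Ept9 rats than in those of the other lines. This binding protein holds IGF away from its receptor until the protease encoded by Pappa cuts it, and it is made by fibroblasts, smooth muscle and many other cells. Its 1 probe set, 1371462_at, gave signals of 569.6, 635.3 and 689.7 in Ept9, against 261.1, 340.9 and 361.3 in Ept1, 315.7, 375.2 and 342.9 in Ept2, and 358.5, 410.7 and 312.3 in Ept6. All 3 Ept9 arrays lay above the other 9, whose highest value was 410.7, and the ranges of Ept1, Ept2 and Ept6 overlapped one another. Such separation above the rest was found in Ept9 for 1.29% of all tested probe sets.

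Its mean signal was 631.5 ± 60.1 in Ept9, against 321.1 ± 53.0 in Ept1, 344.6 ± 29.8 in Ept2 and 360.5 ± 49.2 in Ept6 (SD, n = 3 each). Ept9 exceeded the mean of the other lines by 0.86 on the log2 scale (SE 0.12, 95% interval 0.61 to 1.11), or 1.81-fold, with an adjusted p of 0.0113 in limma's moderated test and 0.0265 in its F test among the 4 lines. An exact two-sided permutation test of this value over the 12 arrays gave p = 0.00455, the smallest that 220 divisions of the arrays allow. This largely restates the separation of the Ept9 arrays and is not adjusted for the other member probe sets and lines. By pair, Igfbp4 was lower in Ept1 than in Ept9 by a difference of -0.95 (limma, adjusted p = 0.0166) and lower in Ept2 than in Ept9 by a difference of -0.84 (limma, adjusted p = 0.0225). In these pairs 0.494% and 0.833% of all tested probe sets passed. The difference of -0.79 between Ept6 and Ept9 had an interval of -1.10 to -0.47 and did not pass (limma, adjusted p = 0.0784), where 0.124% of all did. In the remaining pairs 0 of 18 member probe sets passed, against 0.102% of all between Ept1 and Ept2, 0.204% between Ept1 and Ept6 and 0.629% between Ept2 and Ept6. At an unadjusted p under 0.05 there were 2 of 18 in each of these pairs, where 10.4%, 6.46% and 15.5% of all tested probe sets were, in the same order. The call in Ept9 was lost without replicate 2 of Ept9, when the difference was 0.85 with a limma adjusted p of 0.0517, and without its replicate 3, when it was 0.80 with 0.0772. It passed in the other 10 fits without 1 array. The F test was lost without any 1 of the Ept9 arrays, replicate 2 of Ept1, replicate 3 of Ept2 or replicate 1 of Ept6, with limma adjusted p-values up to 0.116. The pair with Ept1 was lost without replicate 1 or 2 of Ept1, and that with Ept2 without replicate 1 or 3 of Ept2, as both were without replicate 2 or 3 of Ept9. With no filter on dim probe sets the F test no longer passed (limma, adjusted p = 0.0892).

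**Figure D2:**
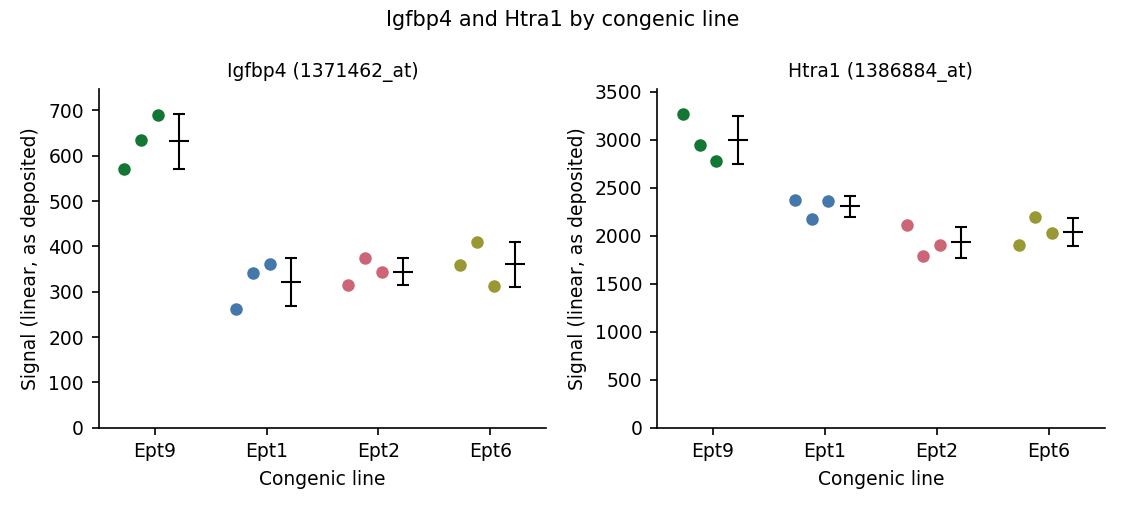
Signal of Igfbp4 (left) and Htra1 (right) on the linear scale as deposited, by congenic line. Coloured points are single arrays, and the bar and whiskers beside them are the mean and SD of 3 arrays. All 3 Ept9 arrays lie above the other 9 for both genes, at 569.6 to 689.7 for Igfbp4 and at 2772.4 to 3265.7 for Htra1.

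Because a single probe set read Igfbp4, and the gene lies on the chromosome whose COP segment is carried by Ept9, a change in transcript level and a COP sequence difference under the probes cannot be told apart. In RNA of a whole gland, a change in the number of cells of a type and a change in RNA per cell cannot be told apart either. Of the stroma and pericyte markers, 7 of 8 were above the floor and Pdgfrb was under it. Their summed signal was 4319 to 4820 in Ept9, against 2508 to 3505 in Ept1, 2185 to 4381 in Ept2 and 3110 to 4312 in Ept6. Most of it came from the collagen gene Col1a2, at 2979 to 3258 in Ept9 and 1089 to 2718 elsewhere (difference 0.70, limma adjusted p = 0.323). The collagen genes Col3a1 and Col1a1 differed by 0.63 and 0.43 in Ept9, and Rgs5 of pericytes and Acta2 of smooth muscle by 0.29 and 0.01. The proteoglycan genes Dcn and Lum, which mark fibroblasts, differed by -0.31 and -0.42, and none of these 7 markers passed. The part of these cells in the Igfbp4 difference was not tested.

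Along chromosome 10, 904 tested genes could be placed by the RefSeq annotation. Of these, 30 (3.32%) passed in Ept9, where 0.666% of all tested probe sets, counted as probe sets and not as genes, did. Igfbp4, itself among these 30, was the 657th in this order. The first of the 30 was the 321st and the last the 901st, so Igfbp4 lay between them by definition. This does not place it inside or outside the COP segment. Among the 10 tested genes on each side of Igfbp4, 2 passed, both keratin genes: Krt10, with a difference of -0.81 (limma, adjusted p = 0.0213), and Krt19, with 0.98 (limma, adjusted p = 0.0452). The keratin genes Krt25 and Krt23 had larger differences than Igfbp4, 1.59 (SE 0.38) and 1.20 (SE 0.30). They did not pass (limma, adjusted p = 0.128 and 0.146). The nearest tested gene on each side did not pass. Top2a, a topoisomerase of dividing cells, differed by 0.22 (SE 0.14), and Smarce1, a chromatin remodelling subunit, by 0.30 (SE 0.08). Igfbp4 ranked 24th by p-value among all probe sets tested in Ept9, and 25th by size among the 78 that were called higher there.

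**Figure D3:**
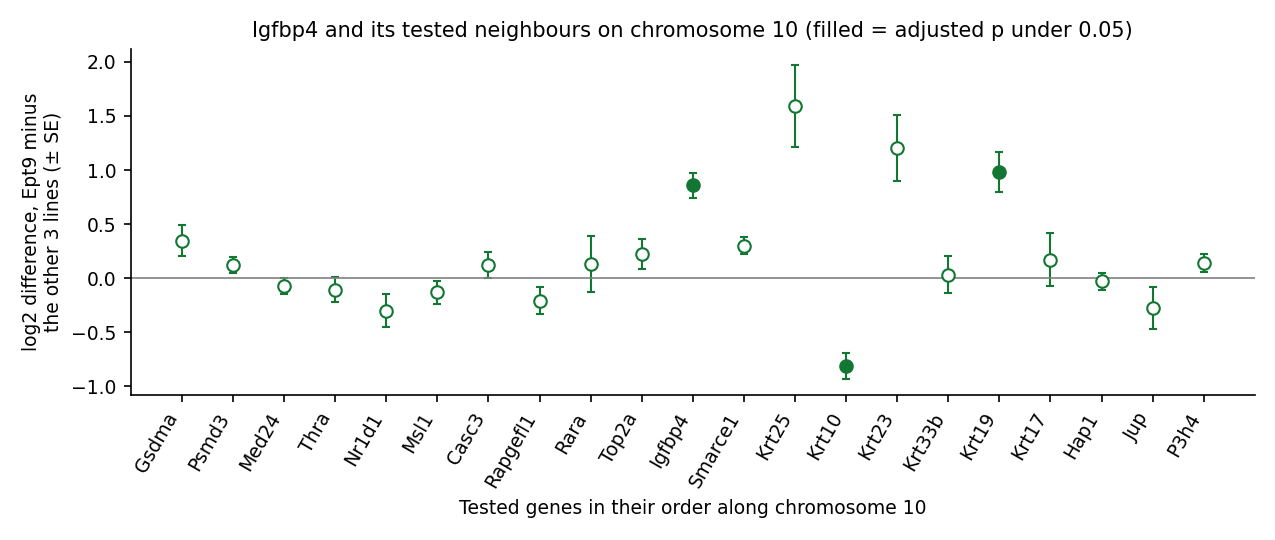
Log2 difference, Ept9 minus the mean of the other 3 lines, of Igfbp4 and the 10 tested genes on each side of it, in their order along chromosome 10. Whiskers are the SE from limma and filled points passed the test, namely Igfbp4 at 0.86, Krt10 at -0.81 and Krt19 at 0.98.

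Igfbp5 had its highest mean signal in Ept2 by 3 of its 4 tested probe sets, but no difference passed the test. Igfbp5 encodes the most conserved of the binding proteins, which is secreted and also bound in the extracellular matrix. Probe set 1370960_at read 5364, 3231.7 and 3985.6 in Ept2, against 3384, 2689.2 and 2935.3 in Ept1, 2499.6, 2768.4 and 2606.1 in Ept6, and 3115.6, 2668.7 and 2548.1 in Ept9. The lowest Ept2 array lay below the highest of Ept1 but above all of Ept6 and Ept9. How many of all tested probe sets were separated in this way was not determined. By pair, the differences of Ept2 from Ept6 and Ept9 were 0.64 and 0.57 and did not pass (limma, adjusted p = 0.114 and 0.190). The difference of Ept2 from the other lines was 0.55 (SE 0.14, 95% interval 0.25 to 0.86, limma adjusted p = 0.106, unadjusted 0.00203). It was 0.36 without replicate 1 of Ept2, and 0.73 without its replicate 2, when it passed (limma, adjusted p = 0.0493).

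The second probe set, 1387348_at, read 4573.6, 1480 and 2246 in Ept2, and ranged from 1141.8 to 2121.1 in Ept1, from 1154.3 to 1512.7 in Ept6 and from 1246.7 to 1481.5 in Ept9. Replicate 1 of Ept2 stood far above the other 11 arrays, and replicate 2 was within the range of the other lines. The difference was 0.77 (SE 0.29, limma adjusted p = 0.256) and was 0.33 without replicate 1 of Ept2 (limma, adjusted p = 0.552) and 1.14 without its replicate 2 (limma, adjusted p = 0.101). A further pair of probe sets with signals of 219.5 and above differed by less in Ept2: 1396152_s_at by -0.05 (SE 0.15), with its highest mean in Ept1, and 1397830_at by 0.13 (SE 0.13), with a mean of 305.3 ± 73.6 in Ept2 against 290.9 ± 23.7 in Ept1, 247.3 ± 34.8 in Ept6 and 284.0 ± 28.0 in Ept9. The fifth, 1387347_at, was dim on all arrays, at 5.5 to 53.9. The gene's readings in Ept2 therefore depended on the probe set, and the part of the transcript that each one reads is not given in the sources used here.

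**Figure D4:**
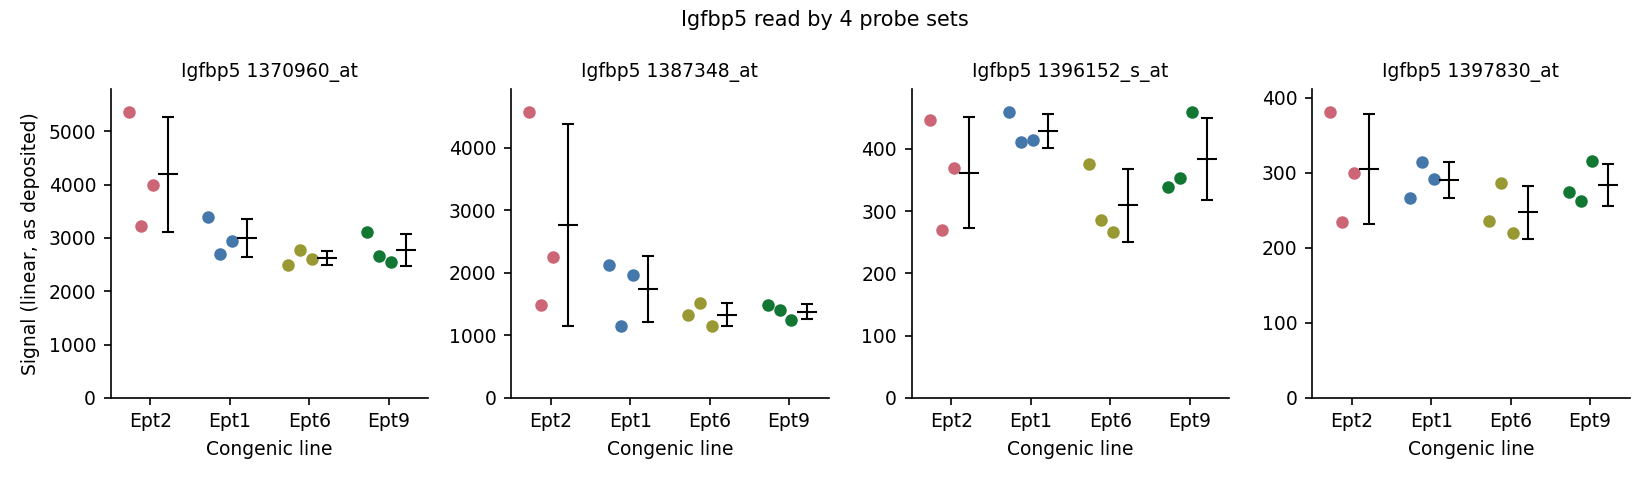
Signal of the 4 tested Igfbp5 probe sets on the linear scale, by congenic line. Points are single arrays, and bar and whiskers are the mean and SD of 3 arrays. Replicate 1 of Ept2 reached 5364 and 4573.6 in the first and second panels, where the other lines did not exceed 3384 and 2121.1.

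Replicate 1 of Ept2 was also the highest array for some markers of other hormone cells but not for all. Tshb, the thyrotropin subunit, read 18691.6 there and at most 9820.2 on the other arrays, and 4 of the 5 gonadotroph markers, namely Cga, Fshb, Gnrhr and Nr5a1, were also highest there. Lhb of gonadotrophs read 352.2 there and 405.3 on replicate 3 of Ept2, Trhr of thyrotrophs read 3298.6 in a range of 2524.9 to 4302.8, and Pcsk2 of corticotrophs and melanotrophs had its lowest value there, at 875.7. The summed signal of the thyrotroph markers was 22080, 10800 and 14190 in Ept2, and 8032 to 13180 elsewhere. That of the folliculostellate and stem cell markers, of which Gfap was under the floor, was 2075 to 2778 in Ept2 and 1394 to 1899 elsewhere. The summed signal of the macrophage and leukocyte markers was 11910 on replicate 1 of Ept2 and 14890 to 19530 on the other arrays. Among stroma and pericyte markers, Dcn, Lum and Col1a1 were highest on that array and the rest were not. The control probes for Gapdh, read at the 3′ and the 5′ end of the transcript, differed by 0.314 to 0.422 on the log2 scale in Ept2 and by 0.088 to 0.278 in the other lines, a sign of how complete the RNA was. The same controls for beta-actin differed by 1.756 to 1.852 in Ept2 and 1.486 to 1.785 elsewhere, and those for hexokinase by 1.075 to 1.544 and 0.64 to 1.403, so that these overlapped. The part of these values in the Igfbp5 reading was not tested.

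The ligand Igf1 was detected by 3 probe sets, all above the floor on all 12 arrays. Probe set 1370333_a_at averaged 863.7 ± 203.3 in Ept1, 780.3 ± 71.1 in Ept2, 770.0 ± 77.7 in Ept6 and 679.4 ± 108.9 in Ept9, with neighbours in this order overlapping. Probe set 1388469_at averaged 642.7 ± 59.0 in Ept1, 576.3 ± 138.2 in Ept2, 570.5 ± 75.3 in Ept6 and 541.1 ± 18.3 in Ept9. By these linear means the lines stood in the same order in both. On the log2 scale Ept2 and Ept6 changed places, with differences of 0.033 and 0.007 for 1370333_a_at and -0.042 and -0.033 for 1388469_at. Over the 12 arrays this pair of probe sets had Pearson's r of 0.234 and Spearman's rho of 0.105. Probe set 1382599_at had the lowest mean in Ept9 too, with 89.8, 91.9 and 121.2 in Ept9, against 166, 106.3 and 169.9 in Ept1, 144, 108.2 and 113.4 in Ept2, and 137, 126.1 and 143.2 in Ept6. Its Ept9 difference was -0.36 (SE 0.14, limma adjusted p = 0.381, unadjusted 0.0269), beside -0.24 and -0.12 for the other probe sets, neither of which passed. In Ept1 the 3 Igf1 differences were 0.20, 0.20 and 0.26, and none passed.

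Igf2, a growth factor of fetal life that is expressed at a low level in most adult rat tissues, was above the floor by 1 of its 4 probe sets. Probe set 1367571_a_at lay between 49.3 and 153.2, under the floor on 1 array, replicate 3 of Ept1. Its means were 100.9 ± 46.7 in Ept1, 105.5 ± 31.2 in Ept2, 125.1 ± 35.1 in Ept6 and 127.9 ± 30.9 in Ept9 (SD, n = 3 each), and the ranges of all 4 lines overlapped. The remaining Igf2 probe sets did not exceed 47.2 on any array.

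The receptors were detected on every array by all 4 probe sets. The highest array exceeded the lowest 1.33-fold to 1.60-fold, the most for Igf1r 1368123_at. Igf1r read 1900.5 to 2520.2 by probe set 1392492_at and 620.5 to 990.8 by 1368123_at. Their Ept9 differences were -0.15 (95% interval -0.35 to 0.05) and -0.25 (-0.53 to 0.03), the lowest of the 4 lines in both. Neither passed. For Igf2r, probe set 1386872_at read 1967.2, 1842.1 and 1884.4 in Ept1, against 1825.3, 1420.5 and 1831.5 in Ept2, 1749, 1488.2 and 1553.6 in Ept6, and 1598, 1497 and 1506 in Ept9. All 3 Ept1 arrays lay above the other 9, the nearest of which was 1831.5, a separation that 0.623% of all tested probe sets showed in Ept1. The difference was 0.24 (SE 0.09, 95% interval 0.04 to 0.44), with an exact permutation p of 0.00909 for this value alone and an adjusted p of 0.543 in limma. The second Igf2r probe set, 1367636_at, read 677.9 to 849.7 in Ept1, within the 640.9 to 838.8 of the other lines but for its highest array, and its difference was 0.01 (95% interval -0.20 to 0.21).

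The binding proteins other than Igfbp4 and Igfbp5 did not differ past the threshold. Igfbp1, a product of the liver mainly, was dim at 5 to 40.4. Igfbp2, which binds Igf2 with preference and is made in the brain among other tissues, read 525.3, 398.2 and 513.2 in Ept2, against 339.7, 427 and 259.1 in Ept1, 324.6, 479.2 and 289.2 in Ept6, and 385.5, 395.9 and 405.9 in Ept9. Of the Ept2 arrays, 2 were above all others and 1 was not, and the difference was 0.38 (SE 0.17, limma adjusted p = 0.334, unadjusted 0.0444).

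Igfbp3, the main carrier of IGF in serum, was lowest in Ept2 by both probe sets. The means of 1367652_at were 827.4 ± 227.0 in Ept2, against 1016 ± 244 in Ept1, 888.2 ± 194.2 in Ept6 and 975.4 ± 87.6 in Ept9. Those of 1386881_at were 591.9 ± 80.8 in Ept2, against 751.2 ± 117.2 in Ept1, 655.2 ± 111.4 in Ept6 and 759.3 ± 102.1 in Ept9. The Ept2 differences were -0.23 (SE 0.19) and -0.27 (SE 0.13), and neither passed. Igfbp6, which also prefers Igf2, read 144.1 to 406.7 by 1372168_s_at and 73.6 to 287.8 by 1387625_at, the lowest value of each being replicate 1 of Ept2. The widest intervals were those of 1372168_s_at, whose Ept1 difference of 0.30 ran from -0.34 to 0.94. Over the 17 member probe sets that were not called in Ept9, differences there lay between -0.36 and 0.22, and their unadjusted 95% intervals reached a median of 0.30 to either side.

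**Figure D5:**
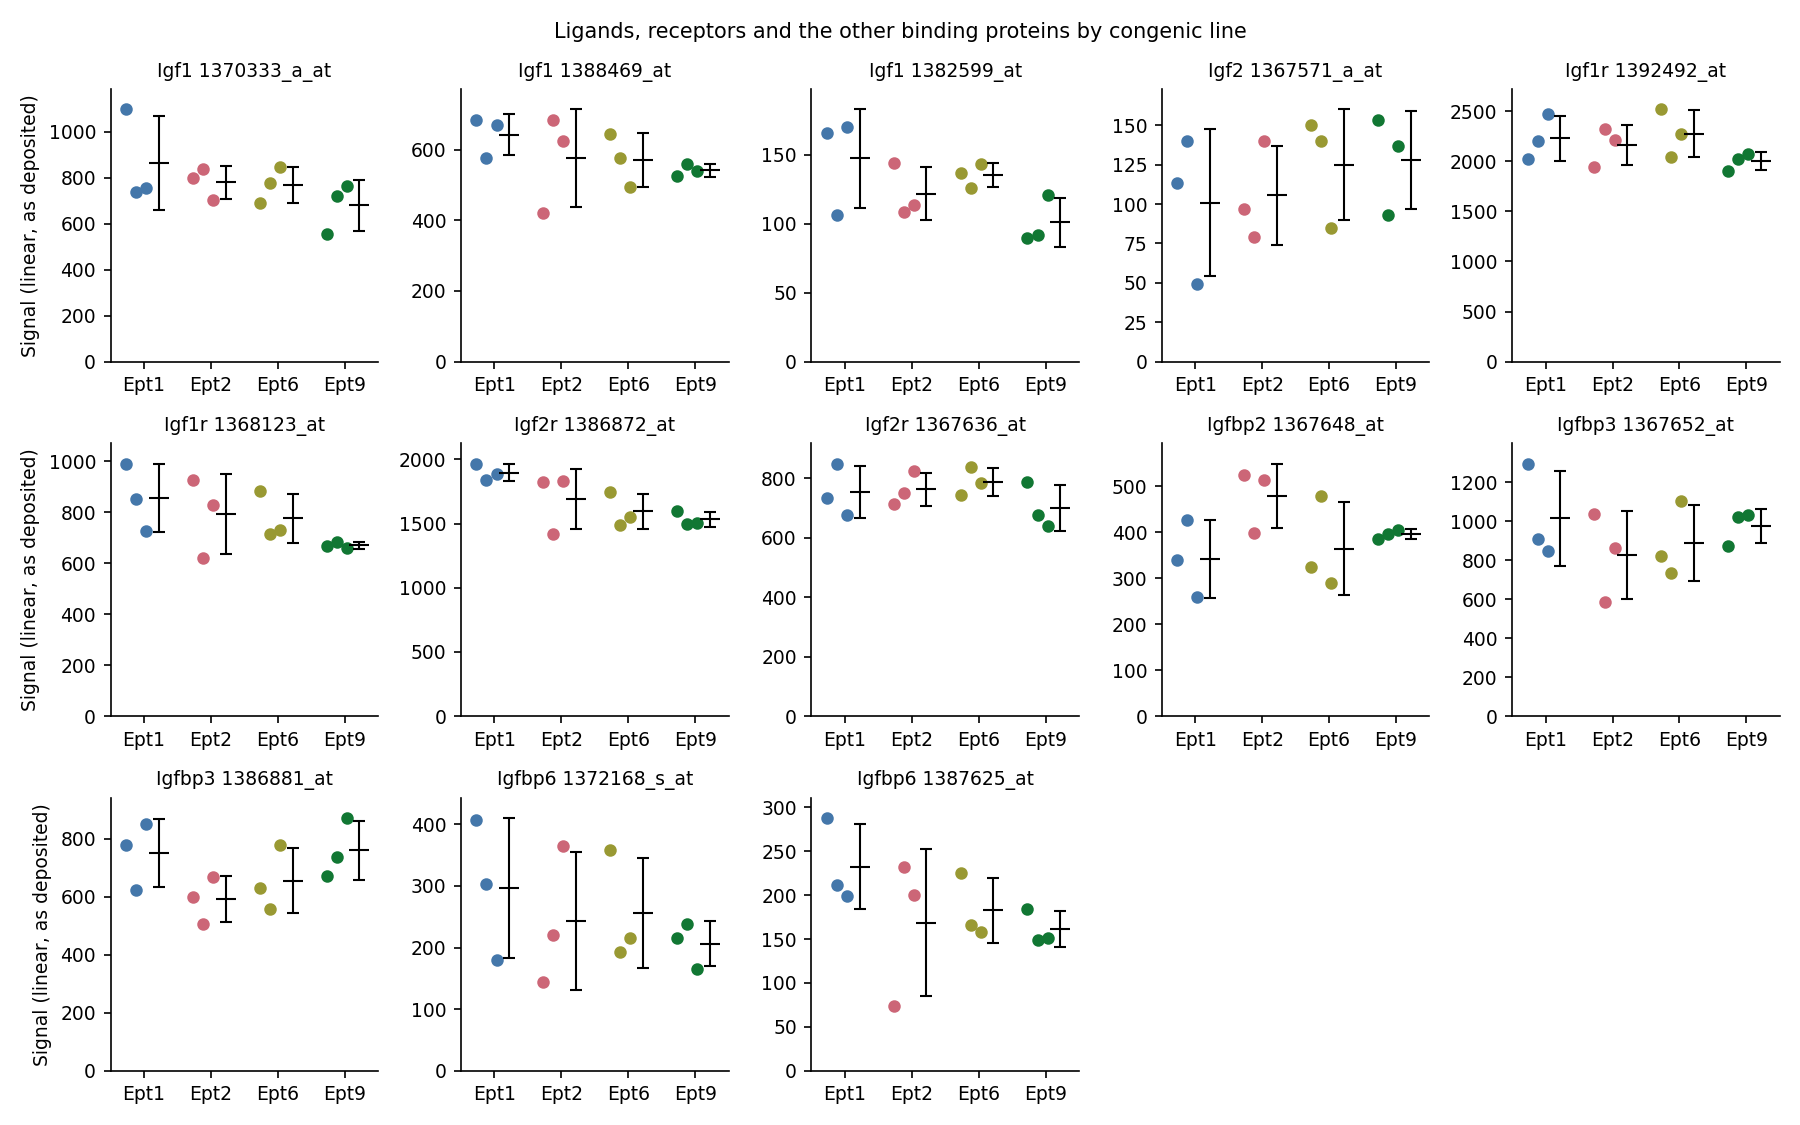
Signal on the linear scale of the 13 tested probe sets of Igf1, Igf2, Igf1r, Igf2r, Igfbp2, Igfbp3 and Igfbp6, by congenic line, each with its own axis from 0. Points are single arrays, and bar and whiskers are the mean and SD of 3 arrays. In the panel of Igf2r 1386872_at the Ept1 arrays, at 1842.1 to 1967.2, all lie above the other 9, as they did for 0.623% of all tested probe sets.

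Probe sets of 1 gene were set against each other over the 12 arrays in 13 pairs. The first and second Igfbp5 probe sets moved together, with Pearson's r of 0.937 (permutation p = 1e-04, adjusted 0.0013) and Spearman's rho of 0.839 (permutation p = 0.00121, adjusted 0.0157). Pearson's r was 0.733 without replicates 1 and 3 of Ept2 and 0.922 for deviations from the line means. In the other 5 Igfbp5 pairs r lay between 0.274 and 0.664 and between -0.057 and 0.393 without the 2 farthest arrays, and none passed after adjustment (lowest permutation p of 0.0176, adjusted 0.0557). The Igfbp6 pair had r of 0.738 (permutation p = 0.00292, adjusted 0.019) and rho of 0.72 (permutation p = 0.0109, adjusted 0.0708), with r of 0.682 without the 2 farthest arrays and 0.712 within lines. The Igfbp3 pair had r of 0.688 (permutation p = 0.012, adjusted 0.0521) and rho of 0.545 (permutation p = 0.0718, adjusted 0.187), with 0.482 without the 2 farthest arrays and 0.598 within lines. The receptors' probe sets did not follow each other: r was -0.01 (permutation p = 0.976) and rho -0.05 (permutation p = 0.888) for Igf1r, and r was 0.09 (permutation p = 0.779) and rho 0.02 (permutation p = 0.956) for Igf2r. Among the 3 Igf1 pairs r lay between 0.147 and 0.637, and none passed after adjustment.

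Of the wider IGF pathway, 53 further genes were listed, comprising the insulin receptor and its substrates, adaptors, the PI3K, AKT and mTOR kinases, growth hormone signalling, proteases and other binding proteins. Of these, 48 had a probe set and 37 were tested. In Ept1, Ept2 and Ept6 against the other lines 0 of 37 passed in limma, where 0.193%, 0.774% and 0.161% of all did, and in Ept9 1 of 37 was higher and 0 lower, where 0.666% of all passed. At an unadjusted p under 0.05 the numbers were 2 of 37 in Ept1, where 7.5% of all were, and 5 of 37 in Ept2 against 14.4%. In Ept6 it was 2 of 37 against 10.7% and in Ept9 6 of 37 against 11%. The medians were 0.02 in Ept1, 0.06 in Ept2, -0.01 in Ept6 and -0.08 in Ept9, beside medians of 0.01, 0.01, 0.01 and -0.01 over all tested probe sets.

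The 1 gene was Htra1, a secreted serine protease that cuts matrix proteins and is known to cut IGF binding proteins, on chromosome 1. Probe set 1386884_at read 3265.7, 2945.3 and 2772.4 in Ept9, against 2373.7, 2174.6 and 2366.2 in Ept1, 2106.4, 1785.2 and 1900.7 in Ept2, and 1904.9, 2192.4 and 2028.3 in Ept6. The Ept9 arrays lay above the other 9, a separation that 1.29% of all tested probe sets showed in Ept9. The difference was 0.52 (SE 0.08, 95% interval 0.34 to 0.69), or 1.43-fold, with a limma adjusted p of 0.0238, and its F test gave 0.041. With no filter the adjusted p was 0.0883, with the replicate number as a block it was 0.062, and it passed in 5 of the 12 fits without 1 array, being lost without any 1 of the Ept9 or Ept1 arrays or replicate 1 of Ept6. By pair, Htra1 was lower in Ept2 than in Ept9 by a difference of -0.63 (limma, adjusted p = 0.0172), where 0.833% of all passed. The differences from Ept9 of -0.37 in Ept1 and -0.55 in Ept6 did not pass (limma, adjusted p = 0.1825 and 0.0784), where 0.494% and 0.124% of all did.

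Across all arrays, the gene whose pattern was most like that of Igfbp4, among 14493 probe sets of other genes with 1 symbol, was Col18a1, which encodes a basement membrane collagen (Pearson's r 0.903, Spearman's rho 0.937, n = 12). The pattern most like that of Igfbp5 1370960_at was that of Nefl, which encodes a neurofilament protein (r 0.943, rho 0.958, n = 12), followed by Camta1 (0.938) and Nrsn1 (0.934). These were picked as the highest of many correlations and all rest on the same 12 arrays, including replicate 1 of Ept2.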

How the data were processed

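RNA of anterior pituitaries was hybridised to 12 one-colour rat arrays, 3 per line. The deposited values were linear signal intensities, which the authors had scaled array by array: the mean without the top and bottom 2% was 500.18 to 500.19 on each. What software made them is not given in the sources used here. The paper given with the series describes other animals. With 57 control probe sets left out, probe sets with a mean signal under the 40th percentile (69.7; 12435 probe sets) were not tested. Values were log2(signal + 16), so fold changes of dim genes are understated, and limma 3.58.1 in R 4.3.3 fitted 4 line means (8 residual degrees of freedom), each line minus the mean of the other 3 and 6 pairs, adjusted by Benjamini-Hochberg within each comparison at 0.05. The script was tested on simulated data. Of 31099 probe sets, 20832 had 1 symbol, 436 several and 9831 none. Precision is limited by 3 arrays per line.

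Named genes were all members, pathway genes that passed, the genes most alike each member's brightest tested probe set, and markers beside a result. Krt10, Krt19, Krt23, Krt25, Top2a and Smarce1 were named for their place beside Igfbp4. The members, lists and rules were chosen with earlier results of these data known. Permutation tests of correlations used 100000 resamples. Alternatives left out each array, changed the filter, the pseudocount (1 and 64) or the normalization (quantile, median), or used the replicate number as a block, a trended prior or array weights.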

Additional observations from a re-analysis of the deposited data

How the results depend on the processing

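The Igfbp4 difference in Ept9 kept its direction in all 21 alternatives (0.78 to 0.93) and passed in 19 of them. In fits without 1 array it was 0.80 to 0.93, the Ept1 to Ept9 difference -1.04 to -0.81, the Ept2 to Ept9 difference -0.91 to -0.78, and the adjusted p of its F test 0.0324 to 0.116. With no filter the limma adjusted p was 0.0531 for Ept1 to Ept9 (-0.95), 0.0722 for Ept2 to Ept9 (-0.84) and 0.0892 for the F test. The Ept6 to Ept9 difference (-0.79) passed with the filter at the 60th percentile (adjusted p = 0.0257) and with a trended prior (0.0184). The member count was 0 to 1 in Ept9 and 0 to 1 in Ept2 without 1 array, and 1 in Ept2 with a trended prior, where it was Igfbp5 1370960_at. The pathway count in Ept9 was 0 with no filter, 0 with the replicate block and 0 to 1 without 1 array, and in Ept2 it was 2 with a trended prior. No scaling alternative moved the median of all probe sets by over 0.1.

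Counts over all probe sets moved more, in the order F test, Ept1, Ept2, Ept6, Ept9 against the rest, then the pairs Ept1 to Ept2, Ept1 to Ept6, Ept1 to Ept9, Ept2 to Ept6, Ept2 to Ept9 and Ept6 to Ept9. The main counts were 184, 36, 144, 30, 124, 19, 38, 92, 117, 155 and 23. With a trended prior they were 419, 73, 335, 104, 219, 63, 66, 195, 453, 261 and 96. With no filter those over 1.5 times away were 53, 18, 32, 9, 29, 12, 16, 32, 33 and 51 for all but Ept6 to Ept9. With the filter at the 60th percentile they were 296 (F test), 244 (Ept2), 60 (Ept6), 41 (Ept1 to Ept2), 154 (Ept1 to Ept9), 303 (Ept2 to Ept6), 238 (Ept2 to Ept9) and 64 (Ept6 to Ept9). A pseudocount of 1 gave 16 in Ept6 and array weights 183 in Ept1 to Ept9. Without 1 array the ranges were 74 to 139, 12 to 33, 27 to 107, 11 to 29, 29 to 99, 10 to 22, 15 to 48, 22 to 111, 40 to 152, 44 to 145 and 12 to 26. The cause was not tested.

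No strong pairing of the samples by replicate number was seen. Same-numbered arrays of different lines had deviations that correlated at -0.134 to 0.073 (median 0.013, 0 of 18 over 0.1). Those of differently numbered arrays correlated at -0.1 to 0.108 (median -0.01, 1 of 36 over 0.1). A weak pairing was not tested. With the replicate number as a block the counts were 84 (F test), 16 (Ept1), 47 (Ept2), 12 (Ept6), 39 (Ept9), 12 (Ept1 to Ept2), 22 (Ept1 to Ept6), 58 (Ept1 to Ept9) and 43 (Ept2 to Ept6), and Igfbp4 in Ept9 was called (0.86, limma adjusted p = 0.0169).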

Other observations

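The patterns of the other members over the 12 arrays had their nearest likeness in genes of varied kinds. Igf2 1367571_a_at was most like Akt1s1, an mTOR complex subunit (r 0.88, rho 0.907), Igf2r 1386872_at most like Cdk19 (r 0.881, rho 0.804), and Igfbp3 1367652_at most like Zdhhc1 (r 0.919, rho 0.853). For Igf1 1370333_a_at the highest was Kitlg, the KIT ligand, with r of 0.893 but rho of 0.517. Each is the highest of many correlations over 12 arrays and carries no test.

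The 5 dim member probe sets were also put through the test with no filter, among 31042 probe sets. None passed, with limma adjusted p-values of the F test from 0.636 to 0.918. The member promoters had GC contents of 48.3% to 78.0%, where the median of all rat promoters was 51.7%.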
